A study of Mus musculus with 8 samples.

Results

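The 42 genes described here encode the machinery that copies DNA in S phase, the enzymes that supply its deoxynucleotides, and regulators of entry into S phase. They were taken from a written list of replication genes, matched to Ensembl identifiers by symbol, and all 42 were found among the 19826 genes of the deposited table. RNA was sequenced from CD4+ YFP+ regulatory T cells (Treg), which restrain immune responses and are defined by the transcription factor Foxp3, sorted from spleen and peripheral lymph nodes of untreated C57BL/6 mice. All mice carried a Foxp3 allele encoding YFP and Cre recombinase (Foxp3 YFP-Cre/+), so Cre acts in the Foxp3-expressing cells that use this allele. The 4 WT libraries came from Pdpk1 +/+ mice and the 4 libraries labelled Pdpk1 KO from Pdpk1 FL/FL mice, in which Cre can delete part of Pdpk1. This gene encodes PDK1, a kinase that activates AKT and related kinases. Foxp3 is X-linked, so cells that use the other X chromosome make neither YFP nor Cre, and these share the animal with the sorted cells in both groups. The labels give no age and do not say whether a library came from 1 mouse or a pool, so p-values measure only the spread between libraries, which may be technical. In what follows KO stands for the label only.

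Replication begins in G1, when the origin recognition complex, Cdc6 and Cdt1 load the ring-shaped MCM2-7 helicase onto DNA. At the start of S phase Cdc45 and the GINS complex join and activate it, after which primase and the polymerases copy both strands. PCNA is the sliding clamp that holds polymerases such as delta on the template. Many of these genes are transcribed when cyclin E and other cyclins release E2F factors from the retinoblastoma proteins, so their transcripts are abundant in populations that hold dividing cells. Treg divide at a steady rate in unchallenged mice, more so those of effector phenotype.

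The libraries held 17448095 to 26299577 recovered reads each. WT replicate 1 stood apart in the genes described here, and results are given with and without it. Pdpk1 had 2599.6, 2374, 1995 and 1923 normalized counts (reads scaled by the authors for library depth) in WT replicates 1 to 4 and 2505, 1900.1, 1872 and 1656 in KO replicates 1 to 4, a log2 change of -0.17 (exact two-sided permutation p = 0.286, the smallest possible being 0.0286). The value sums all exons and the deleted exons were not given, so it does not check the labels. Foxp3 lay between 4418 and 6098 in WT and between 4708 and 6340.5 in KO (exact permutation p = 0.6). Of the 7 Treg markers, Ikzf2 was lower in KO (log2 change -1.13) and Il2ra higher (0.63), both without overlap between groups in the test described below (adjusted p = 4.5e-06 and 0.00114), and the other 5 were not past the threshold. Of 18 macrophage markers 17 were listed, with a summed normalized count of 1339 to 2504 in WT and 1868 to 4643 in KO. In the same test 6 of the 15 tested were higher in KO, among them Lyz2 and Csf1r. Axl was lower in KO and made up much of the WT sums, with 941 to 1296 in WT and 404 to 796 in KO. Without it the other 16 markers summed to 178 to 1374 in WT and 1456 to 3847 in KO, with no overlap. Vsig4 was at 0 in at least 4 libraries. Of B cell markers 5 were listed, summing to 360 to 528 in WT and 156 to 305 in KO. Of the 2 tested, Cd79b was lower in KO (-1.17, adjusted p = 0.00407, no overlap). It made up most of these sums, with 300 to 469 in WT and 101 to 195 in KO. Cd79a went the other way, at 0.73, and was not past the threshold (adjusted p = 0.258). The 2 genes thus differed in direction, and the part of B cells in the results of the replication genes was not tested. CD8 T cell markers summed to 268 to 512 in WT and 365 to 528 in KO, mostly from Cd8b1, whose groups overlapped. Cd8a had 35.9 to 55.9 in KO and 2.25 to 31.3 in WT, without overlap, an order seen in 7.06% of all genes tested. It was not past the threshold (log2 change 1.47, adjusted p = 0.195). The 7 erythroid markers summed to between 6.83 and 299.8 in any library, and 4 markers of germinal centre B cells and plasma cells to between 14.2 and 63.6.

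Among the replication genes, all 4 of nucleotide supply, E2f2, Mcm4, Mcm5 and Gins2 were lower in KO, and none was higher. Genes were compared on log2(normalized count + 1) with limma, a linear model fitted to all 13847 genes that had a normalized count of 10 or more in at least 4 libraries. A gene was called when its Benjamini-Hochberg adjusted p was under 0.05. All 42 members passed the filter on low values. In KO 8 of them were lower and 0 higher, which leaves 34 that did not pass. The called share of the 42 was 19.0%, against 5.06% of all genes tested for the lower direction, and no member was higher, against 4.41%. At an unadjusted p under 0.05, 22 members were lower, against 12.2% of all genes, and 0 higher, against 10.8%. The count test edgeR also gave 8 lower and 0 higher, the same 8 genes (4.73% of all genes were lower), and DESeq2 gave 13 lower and 0 higher (6.56%). The 5 that DESeq2 added were Cdc45, Lig1, Mcm10, Mcm3 and Prim1. With the replicate number as a block, 9.33% of all genes and 19 members were lower, but the labels do not say whether a shared number pairs libraries.

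The log2 change was negative for 39 of the 42 members, against 50.9% of all genes tested, and its median was -0.41, against -0.0065 over all. The exceptions were Rfc1, Mcm7 and Gins4, none past the threshold. In 15 members every WT library exceeded every KO library, or 35.7%, against 8.24% of all genes. The opposite order was seen in 0 members, against 7.06% of all genes. The 21 members with the lower normalized counts in WT (a mean under the members' median of 383) had a median log2 change of -0.76, and the 21 above it -0.24. These are sorted populations, so fewer cells in S phase and fewer transcripts in each cell cannot be told apart.

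**Figure D1:**
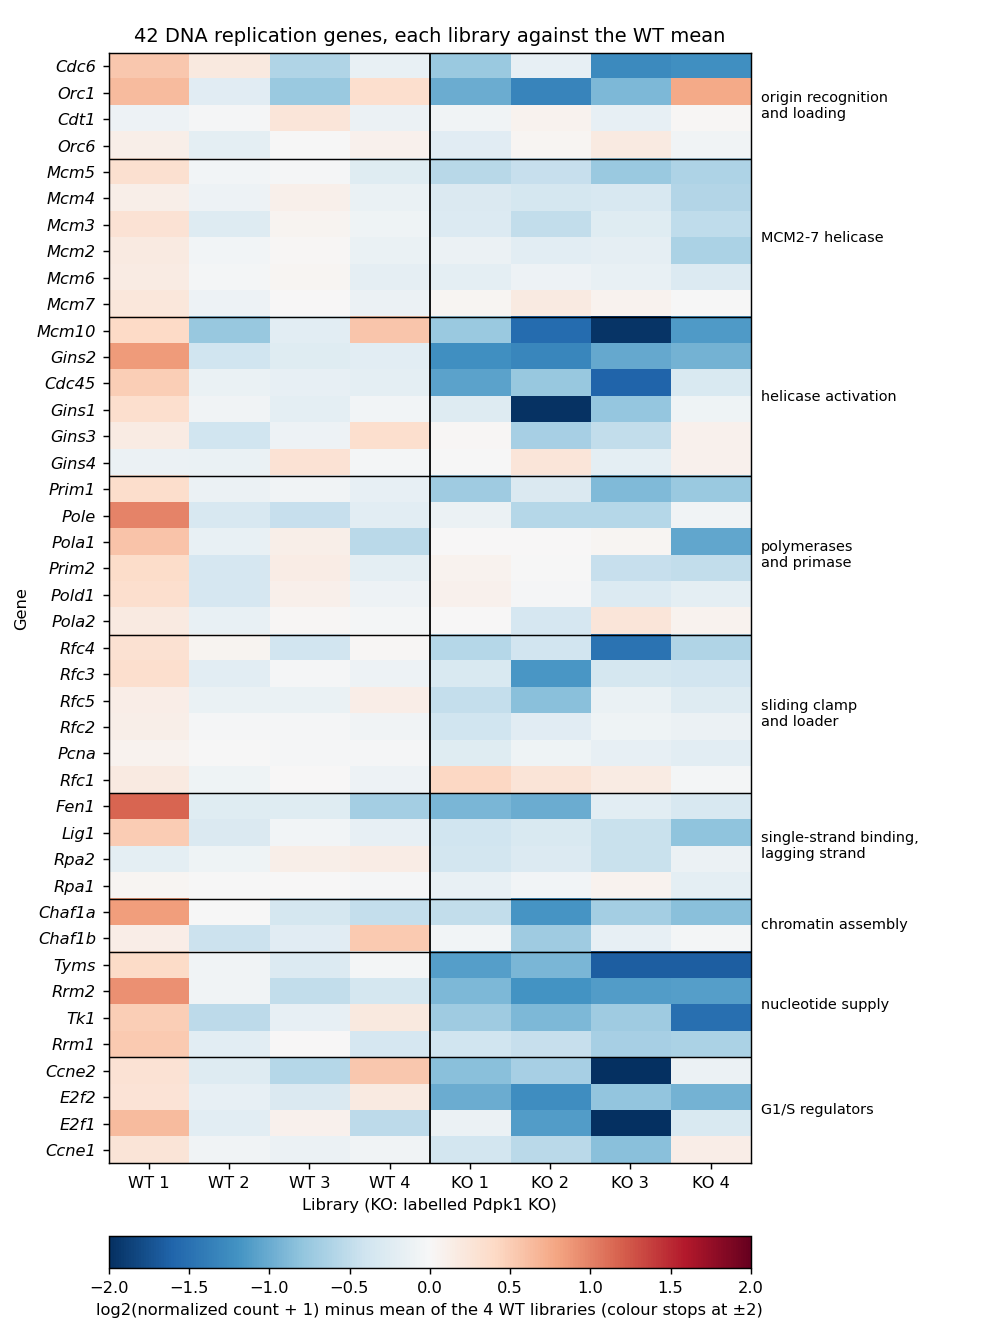
Colours give log2(normalized count + 1) of each gene (rows, grouped by role) in each library (columns) minus the mean of the 4 WT libraries, with red above and blue below. WT replicate 1 is the reddest column, being the highest library for 30 of the 42 genes, and the blue in KO is deepest among nucleotide supply, helicase activation and G1/S genes.

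Libraries within WT differed in these genes. WT replicate 1 was the highest of the 8 libraries for 30 members, or 71.4%, while it was the highest for 15.4% of all genes tested. The 42 genes summed to 41764 normalized counts in WT replicate 1, and to 33353, 35624 and 34011 in WT replicates 2 to 4. KO replicates 1 to 4 had 30409, 30505, 30259 and 28443. Every KO library was thus below every WT library, and WT replicate 1 stood apart above the other WT libraries by more than they differed from one another. Without WT replicate 1 the members' median log2 change was -0.34, and 4 members were called lower (Tyms, E2f2, Rrm2 and Mcm5), against 4.33% of all genes.

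The macrophage markers differed between libraries as well. Their mean log2 level was taken over all 17 listed, with Axl kept in, and also Fcgr1 and Vsig4, which did not pass the filter. This mean was 2.76 in WT replicate 1, the lowest, and 5.86, 3.92 and 4.36 in WT replicates 2 to 4. It was 5.26, 7.25, 6.64 and 5.36 in KO replicates 1 to 4. The mean log2 level of the 42 genes was 9.15, 8.63, 8.69 and 8.73 in WT replicates 1 to 4 and 8.40, 8.25, 8.17 and 8.37 in KO replicates 1 to 4. With the marker level as a covariate the members' median log2 change was -0.17 and 2 were called lower, E2f2 and Tyms, against 2.17% of all genes. Among WT libraries only replicate 2 reached the KO marker levels, so the covariate largely follows the group label. The SE of Tyms was 0.33 with it and 0.23 without. A call lost with the covariate can thus come from a wider error as well as from a smaller change. Leaving out the 3 libraries highest in these markers (KO replicates 2 and 3 and WT replicate 2) left a median of -0.40, and 3 were called, E2f2, Tyms and Tk1, against 2.2%. This alternative was chosen after seeing the data.

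**Figure D2:**
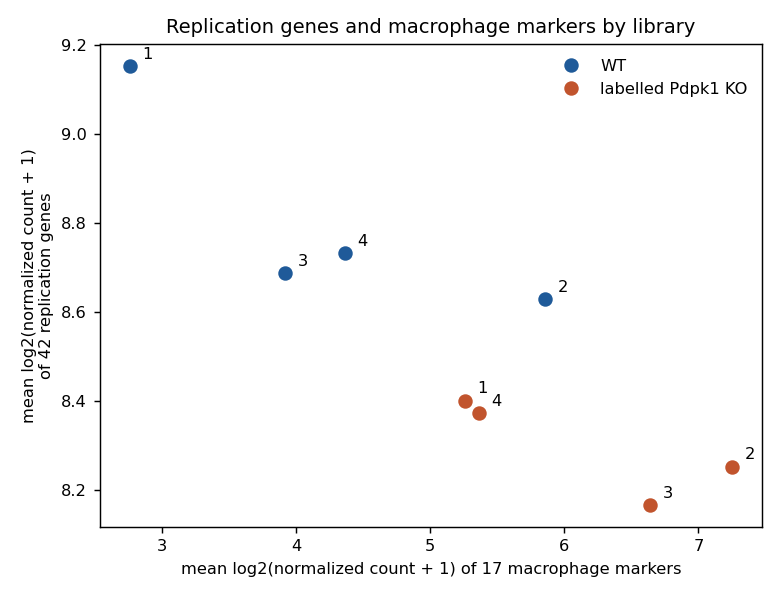
Each point is a library, numbered by replicate, with the mean log2(normalized count + 1) of 17 macrophage markers on the horizontal axis and that of the 42 replication genes on the vertical axis. WT replicate 1 lies at the upper left (2.76 and 9.15), and the 4 KO libraries lie below all WT libraries on the vertical axis, between 8.17 and 8.40.

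The genes of nucleotide supply were lower in 4 of 4 cases, beside 5.06% of all genes tested, with a median log2 change of -1.02. In all 4, WT replicate 1 was the highest library, and it was also the lowest in macrophage markers. Tyms encodes thymidylate synthase, which makes dTMP from dUMP (ENSMUSG00000025747, GRCm38 chromosome 5, 30058202 to 30073617, minus strand). It had normalized counts of 365, 268, 231 and 271 in WT replicates 1 to 4 and 129, 148, 88.7 and 88.8 in KO replicates 1 to 4. The lowest WT library was above the highest KO library. The log2 change was -1.33 ± 0.23 (SE, n = 4 each, limma adjusted p = 0.00191), and it kept its call under all 16 alternatives, with adjusted p from 3.41e-06 to 0.0446. Without WT replicate 1 it was at -1.20, and with the macrophage covariate at -1.27.

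Rrm2 encodes the small subunit of ribonucleotide reductase, the enzyme that turns ribonucleotides into deoxyribonucleotides and whose small subunit accumulates in S phase. It had 899.6, 458, 341 and 377 normalized counts in WT and 256, 208, 220.0 and 224 in KO. The groups did not overlap, and WT replicate 1 was nearly at double the next WT library. The log2 change was -1.08 ± 0.25 (SE, adjusted p = 0.0109). Leaving out WT replicate 1 gave -0.78, with the call kept. The call was lost with the macrophage covariate (-0.68, adjusted p = 0.296) and without the 3 libraries (-1.02, adjusted p = 0.171).

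Rrm1, the large subunit of the same enzyme, had 1692, 1017, 1174 and 933 normalized counts in WT and 891, 853, 742 and 755 in KO. WT replicate 1 was again highest and the groups came close without overlapping. Its log2 change of -0.54 ± 0.16 (SE, adjusted p = 0.0454) lost its call without WT replicate 1 or 3 or KO replicate 2, 3 or 4 (-0.56 to -0.36, adjusted p = 0.0700 to 0.124), with -0.36 without WT replicate 1. The covariate for macrophage markers gave -0.25 (adjusted p = 0.593), and leaving out the 3 libraries -0.58 (adjusted p = 0.223).

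Tk1 encodes the cytosolic thymidine kinase, which salvages thymidine for S phase. It had 479, 238, 305 and 388 normalized counts in WT and 209, 182, 208 and 119 in KO. Every WT library was above every KO library. On the log2 scale the change was -0.96 ± 0.24 (SE, adjusted p = 0.0204). Its call was lost without WT replicate 1 or 4 or KO replicate 4, where the log2 change was -0.79, -0.89 and -0.77 (adjusted p = 0.0601, 0.0708 and 0.0521), and with the macrophage covariate (-0.69, adjusted p = 0.315). Exons of Tk1 overlap those of Afmid on the opposite strand, and the strand setting of the counting was not given.

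**Figure D3:**
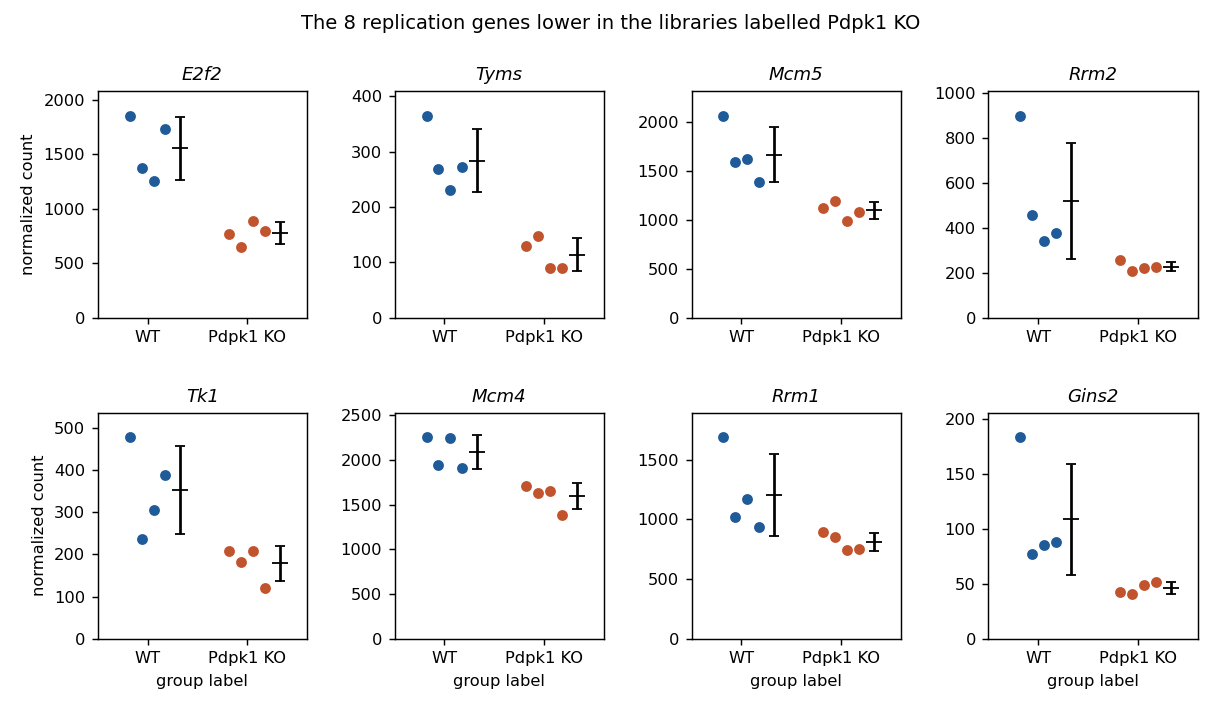
Points give the normalized count in each of the 4 WT (blue) and 4 KO (orange) libraries for the 8 genes called lower, in order of adjusted p, with the mean and SD beside them and axes from 0. In each panel all 4 WT points lie above all 4 KO points, and WT replicate 1, the leftmost blue point, is the highest library.

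Among the G1/S regulators E2f2 was lower, beside 5.06% of all genes tested, and cyclin E genes were not past the threshold. E2f2 encodes one of the E2F activators, which in T cells has also been linked to restraint of proliferation (ENSMUSG00000018983, chromosome 4, 136172394 to 136196057, plus strand). It had 1856, 1371, 1254 and 1735 normalized counts in WT and 769, 647, 888 and 793 in KO. The groups were widely separated, the KO mean of 774 ± 99.4 being 50.2% of WT on the log2 scale of the fit. The log2 change of -0.99 ± 0.14 (SE, adjusted p = 0.000301) had the smallest adjusted p of the 42 and kept its call under all 16 alternatives.

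E2f1, the classical activator of S-phase genes, had 265, 147, 181 and 119 normalized counts in WT and 156, 77.8, 40.4 and 138 in KO. These groups overlapped, and the KO libraries themselves differed by more than 3-fold. The log2 change was -0.90 ± 0.38 (SE, 95% interval -1.72 to -0.08, adjusted p = 0.174). The cyclin E genes, whose products drive CDK2 at the G1/S transition, also overlapped between groups. Ccne1 was at -0.40 (adjusted p = 0.348) and Ccne2 at -1.22 (adjusted p = 0.208), where KO replicate 3 had 7.86 normalized counts and the other KO libraries 45.6 to 75.95.

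In the MCM2-7 helicase, 2 of 6 subunits were called lower, beside 5.06% of all genes tested. Mcm5 (ENSMUSG00000005410, chromosome 8, 75109569 to 75128439, plus strand) had 2063, 1589.5, 1620.3 and 1386 normalized counts in WT and 1116, 1191, 989 and 1078 in KO. No KO library reached the lowest WT library. Its log2 change was -0.59 ± 0.12 (SE, adjusted p = 0.00558), kept in all 8 fits without 1 library and lost with the macrophage covariate (-0.46, adjusted p = 0.153) and without the 3 libraries (-0.60, adjusted p = 0.0930).

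Mcm4 had 2260.3, 1946, 2242 and 1909 normalized counts in WT and 1713, 1626, 1659 and 1379.9 in KO. The lowest WT library was above the highest KO library. A log2 change of -0.39 ± 0.10 (SE, adjusted p = 0.0260) was fitted. Its call was lost without WT replicate 1 or 3 or KO replicate 3 or 4 (-0.41 to -0.32, adjusted p = 0.0512 to 0.0771), with the macrophage covariate (-0.33, adjusted p = 0.274) and without the 3 libraries (-0.47, adjusted p = 0.140).

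The other subunits of the ring were not past the threshold, although the complex holds a copy of each. Mcm3, Mcm2 and Mcm6 were at -0.38, -0.29 and -0.18 (adjusted p = 0.0637, 0.158 and 0.292). Mcm7 had 2264, 1805, 1952 and 1789.8 normalized counts in WT and 1988, 2195, 2032 and 1924 in KO. Its libraries were interleaved, with a log2 change of 0.06 (95% interval -0.15 to 0.28). Exons of Mcm7 overlap those of Ap4m1 and Cops6 on the opposite strand. Whether Mcm7 changed differently from Mcm5 was not tested.

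**Figure D4:**
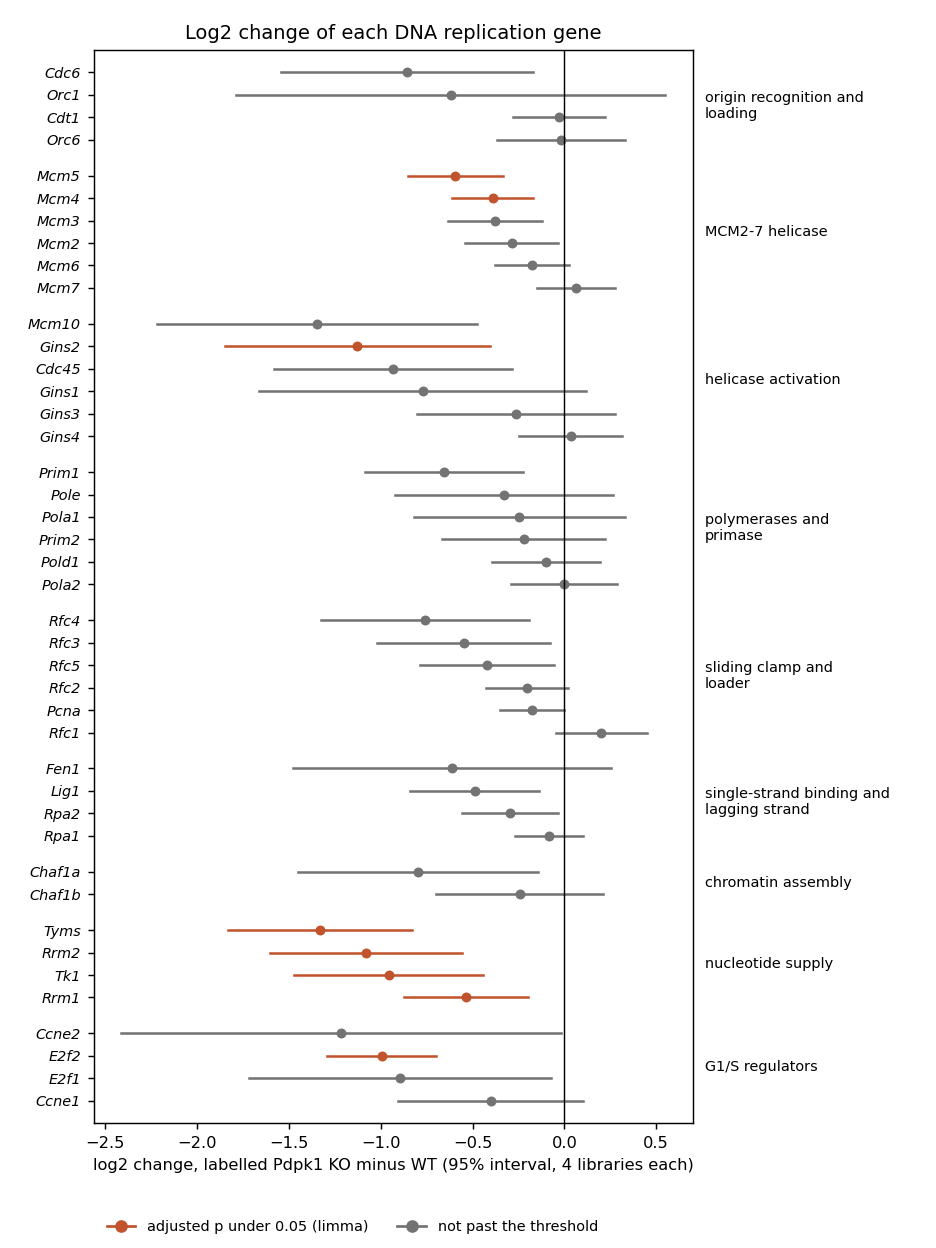
Points give the log2 change of each of the 42 genes, KO minus WT, and lines the 95% interval from limma, grouped by role, with the 8 called genes in orange. All 4 nucleotide supply genes are called, the MCM subunits run from Mcm5 at -0.59 to Mcm7 at 0.06, and 3 points lie above 0.

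Origin licensing genes, which act before the helicase ring is loaded, gave 0 of 4 called in limma. Of all genes tested, 5.06% were lower and 4.41% higher. At an unadjusted p under 0.05, 1 licensing gene was lower, beside 12.2% of all genes. Cdt1, a loading factor, had 763, 806, 959 and 748 normalized counts in WT and 775, 860.2, 729.8 and 833 in KO. The groups overlapped throughout, with a log2 change of -0.03 (95% interval -0.28 to 0.22). Its partner Cdc6 was at -0.86 (adjusted p = 0.116), with 59.5 to 129 normalized counts in KO and 95.7 to 213 in WT. Orc1 and Orc6, subunits of the origin recognition complex, were at -0.62 and -0.02 (adjusted p = 0.557 and 0.965).

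Of the 6 factors of helicase activation, Gins2, a GINS subunit, was called lower, beside 5.06% of all genes tested. It had 184, 77.1, 85.6 and 87.8 normalized counts in WT and 42.8, 40.5, 49.4 and 52.1 in KO. The groups did not overlap, and WT replicate 1 was more than double any other library. Its log2 change was -1.13 ± 0.34 (SE, adjusted p = 0.0483). This call was lost in each of the 8 fits without 1 library (-1.26 to -0.85, adjusted p = 0.0578 to 0.158), without a filter (0.0635), after quantile normalization (0.0676), with the macrophage covariate (-0.63, adjusted p = 0.546) and without the 3 libraries (-1.22, adjusted p = 0.197). Exons of Gins2 overlap those of Gse1 on the opposite strand.

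Mcm10, which helps to activate the helicase, had the most negative log2 change of the 42, -1.35 ± 0.41 (SE), and just missed the threshold in limma (adjusted p = 0.0512). Its normalized counts were 47.9 to 121 in WT and 20.2 to 48.4 in KO. Cdc45, the helicase cofactor, did not overlap between groups, with 133 to 213 in WT and 49.4 to 123 in KO (-0.93, adjusted p = 0.0681). The other GINS subunits Gins1, Gins3 and Gins4 were at -0.77, -0.26 and 0.03 (adjusted p = 0.299, 0.591 and 0.914).

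The polymerases and primase, which make the new strands, gave 0 of 6 called in limma (5.06% of all genes lower and 4.41% higher). At an unadjusted p under 0.05, 1 of them was lower, beside the same 12.2% of all genes. That gene was Prim1, the catalytic primase subunit, at 239 to 343 normalized counts in WT and 145 to 219 in KO (-0.65, adjusted p = 0.0545). Pold1, the catalytic subunit of polymerase delta, had 1358, 859.9, 1164 and 1004 in WT and 1147, 1059.6, 898 and 946 in KO. Its KO libraries all fell inside the WT range (log2 change -0.10, 95% interval -0.40 to 0.20). Pole, Pola1, Prim2 and Pola2 were at -0.33, -0.25, -0.22 and -0.0045, with adjusted p from 0.536 to 0.989. In Pole, WT replicate 1 had 582 normalized counts and all others between 195 and 276.

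Clamp and clamp loader genes also gave 0 of 6 called in limma (5.06% of all genes lower and 4.41% higher). In this role 3 were lower at an unadjusted p under 0.05 (12.2% of all genes). Pcna, which encodes the sliding clamp, had 4340.2, 4099, 4069 and 4059 normalized counts in WT and 3508, 3915, 3687 and 3564 in KO. The 2 groups did not overlap, but the shift was small, with a log2 change of -0.18 (95% interval -0.35 to 0.00, adjusted p = 0.218). Among the loader subunits Rfc4, Rfc3, Rfc5 and Rfc2 were at -0.76, -0.55, -0.42 and -0.20 (adjusted p = 0.0922, 0.147, 0.151 and 0.268). Rfc1, the large loader subunit, was at 0.20, with 1019 to 1241 in WT and 1070.2 to 1459 in KO (adjusted p = 0.334).

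Genes of single-strand binding, lagging strand maturation and chromatin assembly gave 0 of 6 called in limma (5.06% of all genes lower and 4.41% higher). Of these, 3 were lower at an unadjusted p under 0.05 (again beside 12.2%). Rpa1, the large subunit of the single-strand binding complex RPA, had 4152, 3991, 4036 and 3951 normalized counts in WT and 3619, 3897, 4236 and 3506 in KO. Its groups overlapped (-0.08, 95% interval -0.27 to 0.10), and Rpa2 was at -0.30 (adjusted p = 0.156). Lig1, the ligase that joins Okazaki fragments, did not overlap between groups, with 739 to 1279.5 in WT and 519 to 729 in KO (-0.49, adjusted p = 0.0805). Fen1, the flap nuclease of the same step, was at -0.61 (adjusted p = 0.412), with 180.4 in WT replicate 1 and 39.4 to 68.5 in the others.

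Chaf1a and Chaf1b encode subunits of the chaperone that places histones on new DNA. Chaf1b had 442, 297, 343 and 575 normalized counts in WT and 385, 244, 358 and 392 in KO. Its groups overlapped, with a log2 change of -0.24 (adjusted p = 0.551). Chaf1a was at -0.80 (adjusted p = 0.126), with 106 to 265 in WT and 64.7 to 105 in KO.

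Promoter sequences were examined because E2F factors are known regulators of many of these genes, and 1 of them was itself called. RefSeq promoters of build GRCm38.p6, covering 250 bases before to 50 after each start site, were matched for 34 of the 42 members. They were searched on both strands for the E2F motif in the forms TTTCCCGC, TTTCGCGC, TTTGCCGC and TTTGGCGC, for CCAAT, the letters read by NF-Y, and for TTTGAA, known as the CHR element. The E2F letters were present in 13 of 34 members, or 38.2%, against 4.80% of the 9601 tested genes with a promoter and 2.60% of all 27025. CCAAT was present in 61.8% of the members and 42.9% of the tested genes, and TTTGAA in 14.7% and 14.7%. The E2F letters were in 2 of 6 matched members called lower and in 11 of 28 of the others, so the letters stood in genes of either kind. A match is a description of the letters and not a bound site. Only these exact forms in this window were searched, so a member without a match is not shown to lack an E2F site.

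The following matches are shown so that the motif can be compared between MCM subunits and other members that were called and those that were not. Each is read 5′ to 3′ on the strand where the motif starts with TTT, with the motif in capitals and up to 10 flanking bases in lower case.
Mcm5 (called lower, chr8:75109346-75109373, gene strand plus, motif on it): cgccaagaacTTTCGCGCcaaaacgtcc
E2f2 (called lower, chr4:136172303-136172323, gene strand plus, motif on it): cggcatatagTTTGGCGCtaa
Mcm3 (not past the threshold, chr1:20820276-20820303, gene strand minus, motif on the opposite strand): cttcccaagtTTTCCCGCcacggaagtt
Mcm6 (not past the threshold, chr1:128359798-128359825, gene strand minus, motif on it): ggcgtatgctTTTGGCGCgaaaagtgcg
Mcm7 (not past the threshold, chr5:138171850-138171877, gene strand minus, motif on it): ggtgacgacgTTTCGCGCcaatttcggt
Cdt1 (not past the threshold, chr8:122568037-122568064, gene strand plus, motif on it): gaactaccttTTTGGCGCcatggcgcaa
Cdc6 (not past the threshold, chr11:98908003-98908030, gene strand plus, motif on the opposite strand): ccccaggcgaTTTCCCGCtctccaccgg
Pola1 (not past the threshold, chrX:93632276-93632303, gene strand minus, motif on the opposite strand): cgggagtgcaTTTGGCGCcctgtgatga
Start sites are those of RefSeq. The motif of Mcm5 begins 153 bases before the start site, those of Cdc6 and Pola1 138 bases before, and that of Mcm6 110 bases before. In E2f2, Mcm3, Mcm7 and Cdt1 the motifs shown begin 39, 19, 16 and 32 bases after the start site. A further E2F match in Mcm7, not shown and on the opposite strand, begins 165 bases before its start site. Mcm7 and Cdt1, whose log2 changes were 0.06 and -0.03, carry the same letters as Mcm5 and E2f2, at -0.59 and -0.99. Between Mcm5 and Mcm7 the position of the motif shown differs, and whether the letters bear on the changes was not tested. The 250 bases before the start site of Mcm5, the called gene with the motif upstream, are printed whole with E2F and CCAAT matches in capitals (chr8:75109259-75109508, plus strand). They hold 2 overlapping E2F matches and 2 of CCAAT.
Mcm5 promoter: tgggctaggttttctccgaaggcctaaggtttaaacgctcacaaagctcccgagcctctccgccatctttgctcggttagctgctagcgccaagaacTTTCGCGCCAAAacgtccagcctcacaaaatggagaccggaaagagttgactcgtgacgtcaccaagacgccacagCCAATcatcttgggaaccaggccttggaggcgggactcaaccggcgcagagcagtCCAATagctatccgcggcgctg

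A further list of 74 replication and G1/S genes that are not members was read off the same fit. It had 72 genes that passed the filter, of which 8 were lower and 1 was higher, with 63 left uncalled. That is 11.1% lower against 5.06% of all genes. The median log2 change was -0.08, and 9 genes had every WT library above every KO library, or 12.5% against 8.24%. The most negative changes were those of E2f8 and E2f7, which encode repressive E2F factors. E2f8 went from 187, 81.3, 91.1 and 117 normalized counts in WT to 48.4, 9.86, 26.9 and 21.3 in KO (-2.24 ± 0.46 SE, adjusted p = 0.00567). E2f7 was at -2.21 (adjusted p = 0.0253), with 4.49 to 16.8 normalized counts in KO and 31.3 to 91.3 in WT. Both factors are induced by E2F activators and shut S-phase genes off again. The other E2F genes of this list, E2f3, E2f4, E2f5 and E2f6, were not past the threshold. They were at -0.47, -0.07, 0.29 and 0.11 (adjusted p = 0.239, 0.688, 0.521 and 0.655).

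Cell cycle brakes and adaptors were among the others. Cdkn2c encodes p18INK4c, an inhibitor of CDK4 and CDK6, and had 364, 275, 337 and 315 normalized counts in WT against 121, 134, 67.4 and 139 in KO. The groups were far apart (-1.52 ± 0.24 SE, adjusted p = 0.00079), and the call held under all 16 alternatives. Cks1b, a small partner of CDKs, was at -1.07 (adjusted p = 0.00314), and Gmnn, which encodes geminin, the inhibitor of Cdt1, at -0.92 (adjusted p = 0.0308). Uhrf1, which carries DNA methylation through replication, was at -1.002 (adjusted p = 0.0143). The histone chaperone gene Asf1b was at -0.95 and the helicase gene Recql4 at -1.57 (adjusted p = 0.0478 and 0.0452).

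Samhd1, which encodes an enzyme that degrades deoxynucleotides, was the gene called higher. It had 27443, 28036, 30446 and 26322 normalized counts in WT and 40868, 38748, 37008 and 38789 in KO. All KO libraries were above all WT libraries (log2 change 0.47 ± 0.10 SE, adjusted p = 0.00822). After quantile normalization it was at 0.15 and its call was lost (adjusted p = 0.461). The call was also lost with the macrophage covariate (0.50, adjusted p = 0.0701) and without the 3 libraries (0.51, adjusted p = 0.187). Of the 8 lower genes, Cdkn2c alone kept its call with the macrophage covariate, while Cdkn2c, Cks1b and Asf1b kept it without the 3 libraries. Gmnn lost its call without WT replicate 1, 3 or 4 or KO replicate 3 or 4, and E2f7 without WT replicate 1, 3 or 4 or KO replicate 3. Recql4 and Asf1b each lost it in 6 of 8 fits without 1 library and with edgeR (adjusted p = 0.0716 and 0.0577).

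While Cdkn2c was lower, 6 other genes of the same list that act on cell cycle entry upstream of E2F were not past the threshold. These 6 were chosen after their values were seen. Ccnd2, a D cyclin gene, had 15220 to 18588 normalized counts in WT and 14399 to 15480.3 in KO (-0.17, adjusted p = 0.345). Ccnd3, Cdk4 and Rb1, the retinoblastoma gene, were at -0.02, 0.05 and 0.05 (adjusted p = 0.937, 0.836 and 0.827). Cdk6 was at 0.49 (adjusted p = 0.0532) and Cdkn1b, which encodes the CDK inhibitor p27, at 0.24 (adjusted p = 0.176). For Cdkn1b every KO library was above every WT library, an order seen in 7.06% of all genes. Outside these 6, Rbl2, Tfdp1, Cdkn1a and Cdkn1c of the same list were at -0.36, -0.30, -1.34 and 0.85. They were not past the threshold either (adjusted p = 0.107, 0.230, 0.356 and 0.294).

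The mean log2 level of the 42 members was also compared in shape with the 10548 other genes that had a mean normalized count of 50 or more. The 5 most alike over the 8 libraries were Eea1, Jak3, Neu3, Myo1g and Lgalsl, with Pearson r of 0.991, 0.986, 0.982, 0.975 and 0.971. WT replicate 1 was the highest library in all 5, and these 8 points share the group difference and the depth scaling.

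**Figure D5:**
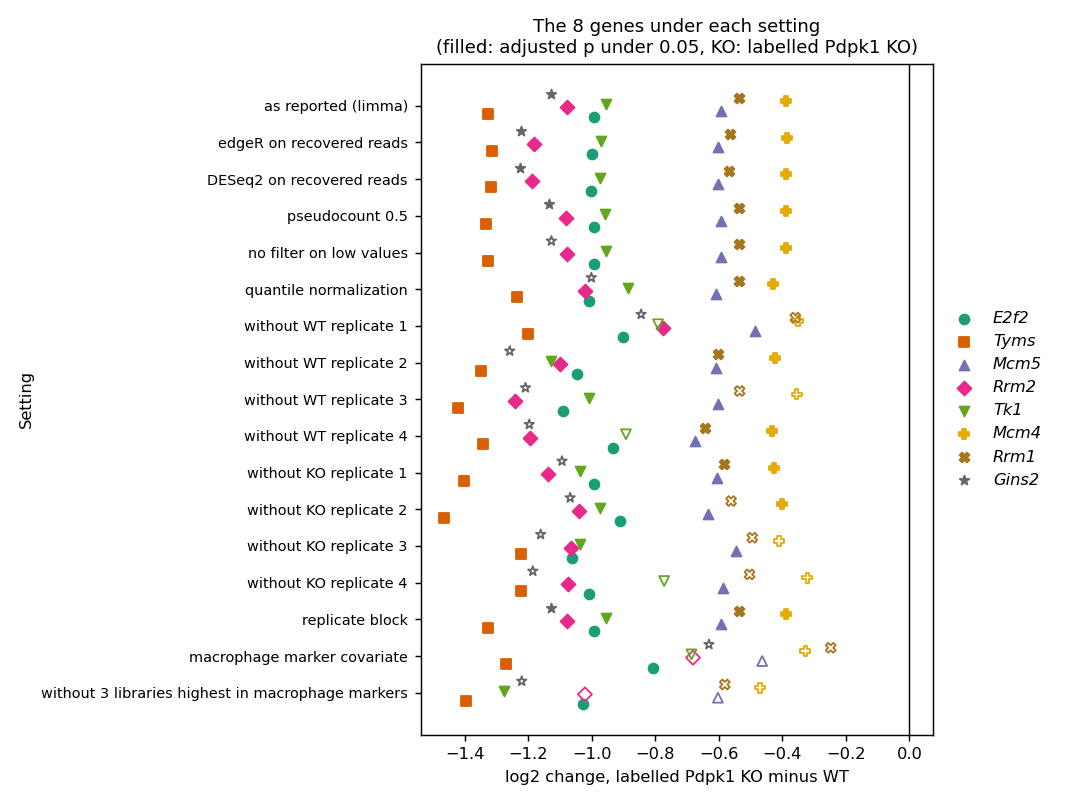
Each row is a setting of the analysis and each symbol 1 of the 8 genes called lower, placed by its log2 change (KO minus WT) and filled where its adjusted p was under 0.05. Tyms and E2f2 are filled in every row, while Gins2 is open in all 8 rows that leave out 1 library.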

How the data were processed

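The deposited values are a signal per gene, namely normalized counts: the authors scaled each library's reads by a DESeq2 factor. Tools and build in the submitters' processing notes are GRCm38, DESeq2 1.21, featureCounts, Subread 2.0.1, SAMtools 1.11, STAR 2.7.6a and Trimmomatic 0.39. Strand setting, annotation release and filters: not given in the sources used here. Dividing by each library's step gave whole reads for 100% of values (tolerance 0.001), which recovered the reads. Symbols of GENCODE M21 matched 19775 of 19826 genes. Exons of 14 members overlap those of another listed gene on the opposite strand.

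Log2(normalized count + 1) was fitted with limma 3.58.1 in R 4.3.3 (eBayes with trend, two-sided, Benjamini-Hochberg over 13847 genes, no replicate term). The filter removed 5979 genes. Changes are on this log2(normalized count + 1) scale, where the added 1 shrinks those of low genes. They can still exceed those of the count models, as for Ccne2 (-1.22, and -0.92 in edgeR). edgeR 4.0.16 (quasi-likelihood, TMM) and DESeq2 1.42.0 were run on recovered reads. Replicate pairs differed by more than counting noise (chi-square per degree of freedom at least 14.5).

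Members and lists were chosen with earlier results of these data known. Of the members, values in all libraries were given for those called, E2f1 and the member with the highest mean of each role without a call. Mcm7 and the promoter matches of members without a call were added after their values were seen. Of the other list, up to 12 called genes were named.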

Additional observations from a re-analysis of the deposited data

Results flagged for a closer look

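Within each group of 4 libraries, a library was singled out when its gap to the nearest other, as a share of the group's range, exceeded Dixon's 95% critical value. Chance gives this in about 1 of 20 groups. Of 106 groups examined, 13 were singled out, 8 of them for WT replicate 1 as the highest library. In WT replicate 1, Pcna had 4340.2 normalized counts (4059 to 4099 in the other WT libraries), Cdc45 213 (133 to 139) and Gins2 184 (77.1 to 87.8). The same library had 582 for Pole (209.9 to 250.3), 343 for Prim1 (239 to 253) and 180.4 for Fen1 (49.2 to 67.2). It also had 222 for Ccne1 (171 to 176) and 91.3 for E2f7 (31.3 to 40.5). WT replicate 2 was low in Gmnn, at 212 (307 to 317).

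In KO replicate 4, Pola1 was low at 142 (293 to 301 in the other KO libraries) and Orc1 high at 58.9 (13.1 to 17.96). The sum over the 42 replication genes was lowest there, at 28443 (30259 to 30505). KO replicate 2 was low in Rfc3, at 121 (207 to 219).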

How the results depend on the processing

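The number of replication genes higher in KO was 0 in limma and under every alternative run, and 0 at an unadjusted p under 0.05. The number lower was 8, with 13 in DESeq2, 2 with the macrophage covariate, 3 without the 3 libraries highest in macrophage markers, and 4 to 9 when 1 library was left out. The members' median log2 change of -0.41 was -0.17 with the covariate and lay between -0.47 and -0.34 when 1 library was left out. On the list of other genes, 8 lower became 1 with the covariate, 4 without the 3 libraries and 4 to 8 without 1 library. The 1 higher became 3 in DESeq2, 0 after quantile normalization, 0 without the 3 libraries and 1 to 2 without 1 library. Over all genes, 700 lower and 611 higher became 301 and 229 with the covariate, 305 and 167 without the 3 libraries, and 495 to 724 and 389 to 588 without 1 library. The 3 libraries leave 5, so fewer samples enter that fit, and the cause of the other shifts was not tested.

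With the replicate number as a block, 19 replication genes were lower, 18 of the other list lower and 4 higher, and 1292 and 1243 over all genes (9.33% lower for all genes). Deviations of same-numbered libraries correlated at 0.217, 0.0921, 0.0481 and 0.113. WT replicates 1, 2 and 4 correlated best with their own number and WT replicate 3 with KO replicate 2 (0.109). The labels do not say what a number shares, so whether the libraries are paired is not known.

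Some changes turned sign. Without 1 library, Cdt1 lay between -0.072 and 0.047 (0.047 without WT replicate 3 and 0.012 without KO replicate 3), Pold1 between -0.21 and 0.0096 (the latter without WT replicate 1), and Foxp3 between -0.0092 (without KO replicate 1) and 0.17. With the covariate, Pole was at 0.32, Gins3 and Pola2 at 0.20, Pold1 at 0.18, Chaf1b at 0.14, Prim2 at 0.05 and Orc1 at 0.04. Of these, Pole and Orc1 were at -0.33 and -0.62 without the covariate. None of the changes that turned sign was past the threshold. The number of replication genes with a negative change was 39 in limma, 32 with the covariate, 36 without WT replicate 1 and 41 without the 3 libraries.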
